A study of Mus musculus with 12 samples.

Results

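The integrated stress response and the endoplasmic reticulum (ER) stress response were read here through 10 genes in mouse liver: Atf4, Ddit3, Trib3, Chac1, Asns, Hspa5, Xbp1, Creb3l3, Fgf21 and Gdf15. The members are a list of symbols, chosen with earlier results of these data known, and were matched to the Ensembl identifiers of the deposited counts. They are 10 of the 40551 genes counted, and all 10 passed the filter on low counts that left 15070 genes for testing. The symbol Ddit3 belongs to 2 identifiers in the annotation, and the one with more reads was taken as the member.

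The data are total RNA sequencing of whole livers from 12 mice, 3 of each genotype, with 1 library per liver. WT livers carried neither deletion. Mcl1 KO livers (Mcl1Δhep in the study) lacked the antiapoptotic gene Mcl1 in hepatocytes through a Cre transgene under the albumin promoter, and nonparenchymal cells kept the gene. Sting1 KO livers (Sting1-/-) lacked the adaptor STING in every cell, and Mcl1 Sting1 DKO livers carried both alterations. The study describes its transcriptomics of Mcl1 KO livers, set against WT, as done on liver samples of 2 months of age. The study's methods place WT, Mcl1 KO and Mcl1 Sting1 DKO mice at 2 and 12 months in general, without tying an age to single libraries, and name both sexes. The labels do not say whether mice of different genotypes were littermates, so p-values measure only the spread between these livers.

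In the integrated stress response, kinases that sense amino acid shortage, misfolded protein, haem shortage or viral RNA phosphorylate the initiation factor eIF2. General protein synthesis falls, while the mRNA of the transcription factor ATF4 is translated better. ATF4 then raises genes for amino acid supply and, with its partner CHOP, genes for the recovery of translation or for cell death. In ER stress the same arm runs through the kinase PERK, while IRE1 splices the mRNA of Xbp1 and ATF6 raises chaperones such as Hspa5. The liver is a secretory organ that expresses the ER machinery strongly, and under stress it can release the hormones FGF21 and GDF15. Much of this response is set by translation, phosphorylation, cleavage and splicing, which gene counts do not record.

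Between 28826367 and 45266387 reads per library fell on genes. Mcl1 itself stood at 90.2 to 104 CPM (reads of a gene set against the TMM-scaled total of its library) in WT livers and at 25.0 to 34.0 CPM in Mcl1 KO livers, a change of -1.77 on the log2 scale (adjusted p = 0.000605). Sting1 transcript stood at 2.11 to 2.53 CPM in WT and 1.16 to 2.70 CPM in Sting1 KO livers, groups that overlapped. It stood at 1.90 to 2.53 CPM in Mcl1 Sting1 DKO and 3.67 to 5.997 CPM in Mcl1 KO livers, groups that did not overlap, at a log2 fold change of -1.07 (adjusted p = 0.134), and every library held Sting1 reads. The allele is not described in the sources used here. Summed hepatocyte markers lay between 103400 and 167400 CPM in all 12 libraries. One library stood apart: Mcl1 KO replicate 3 held 8015 CPM of 6 summed exocrine pancreas markers (Cela2a, Cpa1, Ctrb1, Pnlip, Prss2 and Cel), against 0.414 to 1.62 CPM in the other 11. It also held 1423 CPM of 8 skeletal muscle markers, against 0.495 to 8.48 CPM elsewhere. Pancreatic acinar cells are rich in ER chaperones and ER stress factors, so values without this library are also given for the members and for the comparisons that use it. Y-linked genes were expressed in 3 libraries, WT replicates 2 and 3 and Mcl1 Sting1 DKO replicate 1, and sex was thus unevenly spread over the genotypes.

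The levels of the members in these livers differed widely. In TPM, which corrects for summed exon length, the mean over the 12 libraries was 560 for Hspa5, the ER chaperone BiP. The next levels were 262 TPM for Creb3l3, a liver and gut transcription factor held in the ER membrane, 141 TPM for Xbp1 and 128 TPM for Atf4. The remaining members were scarce: 8.98 TPM for Fgf21, 8.27 TPM for Gdf15, 6.46 TPM for Trib3, 4.54 TPM for Chac1, 2.51 TPM for Ddit3 and 1.10 TPM for Asns. Neighbours in this order, such as Xbp1 and Atf4 or Fgf21 and Gdf15, overlapped between livers. The order also rests on the summed exon length, which was 11709 bases for Asns, 5579 for Ddit3 and 2594 for Chac1. The second Ddit3 identifier, with 105 bases of exon and 8 to 40 reads per library, had a mean of 19.1 TPM. From the lowest to the highest liver, Atf4 spanned 1.58-fold in CPM, Creb3l3 1.86-fold, Xbp1 2.01-fold, Ddit3 2.69-fold, Hspa5 4.26-fold and Trib3 4.30-fold. Gdf15 spanned 7.23-fold, Chac1 10.5-fold, Asns 24.4-fold and Fgf21 88.1-fold.

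The DNA around the start of these genes was searched for the element known to bind ATF4 with C/EBP partners. A gene without a match may hold the element outside the window searched. The promoter windows run from 250 bases before to 50 bases after the start, are taken from RefSeq (GRCm38.p6) and exist for all 10 members, with a pair each for Gdf15 and Creb3l3. The letters TGATGNAA, searched on both strands, occurred in the windows of Chac1, Trib3, Asns and Fgf21 and in 3.97% of all 32851 promoters. These 4 sites are shown because the genes that hold them are well-known ATF4 targets, of which Fgf21 is among the called members below. Each is printed on the strand of its gene with the matched letters in capitals. The Trib3 match begins 15 bases after the start, and the others 193 (Chac1), 23 (Asns) and 139 (Fgf21) bases before it. The stretches are, in the order printed, chr2:119351023-119351082, chr2:152344013-152344072, chr6:7693199-7693258 and chr7:45615596-45615655, on the plus strand for Chac1 and the minus strand for the others.
Chac1: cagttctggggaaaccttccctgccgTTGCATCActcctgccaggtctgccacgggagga
Trib3: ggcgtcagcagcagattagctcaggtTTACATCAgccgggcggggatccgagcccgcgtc
Asns: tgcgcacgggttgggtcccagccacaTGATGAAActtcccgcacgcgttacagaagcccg
Fgf21: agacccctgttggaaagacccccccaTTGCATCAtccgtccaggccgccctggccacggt

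The ER stress response element, CCAAT and CCACG parted by 9 bases and searched on both strands, occurred in 0.119% of all promoters. Among the members it was found in Hspa5 alone, starting 65 bases before the start of the gene (chr2:34771999-34772069, plus strand, GRCm38.p6). It is printed with the matched stretch in capitals, since BiP is the textbook target of ATF6 through this element.
Hspa5: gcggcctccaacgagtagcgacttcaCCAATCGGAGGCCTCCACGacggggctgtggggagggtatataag
The cAMP response element TGACGTCA, which bZIP factors such as CREB3L3 can bind, was in 1.79% of promoters and in 0 of the 12 member windows. A match is a description of letters and not of binding, and the windows hold no enhancer.

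Deletion of Mcl1 with Sting1 intact asks how whole livers whose hepatocytes lack this survival factor differ from WT livers. Of the 10 members, 3 rose in Mcl1 KO livers against WT and 0 fell: the stress hormones Gdf15 and Fgf21, and Ddit3, which encodes CHOP. The genes at the head of the pathway and in the ER did not pass the test. Among all 15070 genes, 20.2% were called, 10.8% as higher and 9.43% as lower. The share of 3 in 10 members is near that called in either direction and above that called higher. With only 10 members, the difference from either share was not tested. Differences are log2 fold changes from edgeR's quasi-likelihood test fitted on all 12 libraries, and adjusted p is the Benjamini-Hochberg value over all genes tested, with a threshold of 0.05. The median over the members was 0.07, against -0.005 over all genes. For 4 members, Ddit3, Hspa5, Fgf21 and Gdf15, the 3 Mcl1 KO livers did not overlap the 3 WT livers, as for 33.3% of all genes. Leaving out WT replicate 2 left 0 members called, and leaving out WT replicate 3 or Mcl1 KO replicate 2 left 1, Gdf15 in each case. The number of all genes called ran from 1233 without WT replicate 2 to 5232 without Mcl1 KO replicate 1. Without Mcl1 KO replicate 3, the same 3 members were called. Fitting the WT and Mcl1 KO libraries alone left 1 member, Gdf15, and 1178 genes. With the share of small structured RNA as a covariate 0 members and 407 genes were called. That share was 0.172 to 0.369% of counts in WT livers and 0.283, 2.37 and 1.36% in Mcl1 KO livers, and its part in the calls was not tested beyond the covariate.

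**Figure D1:**
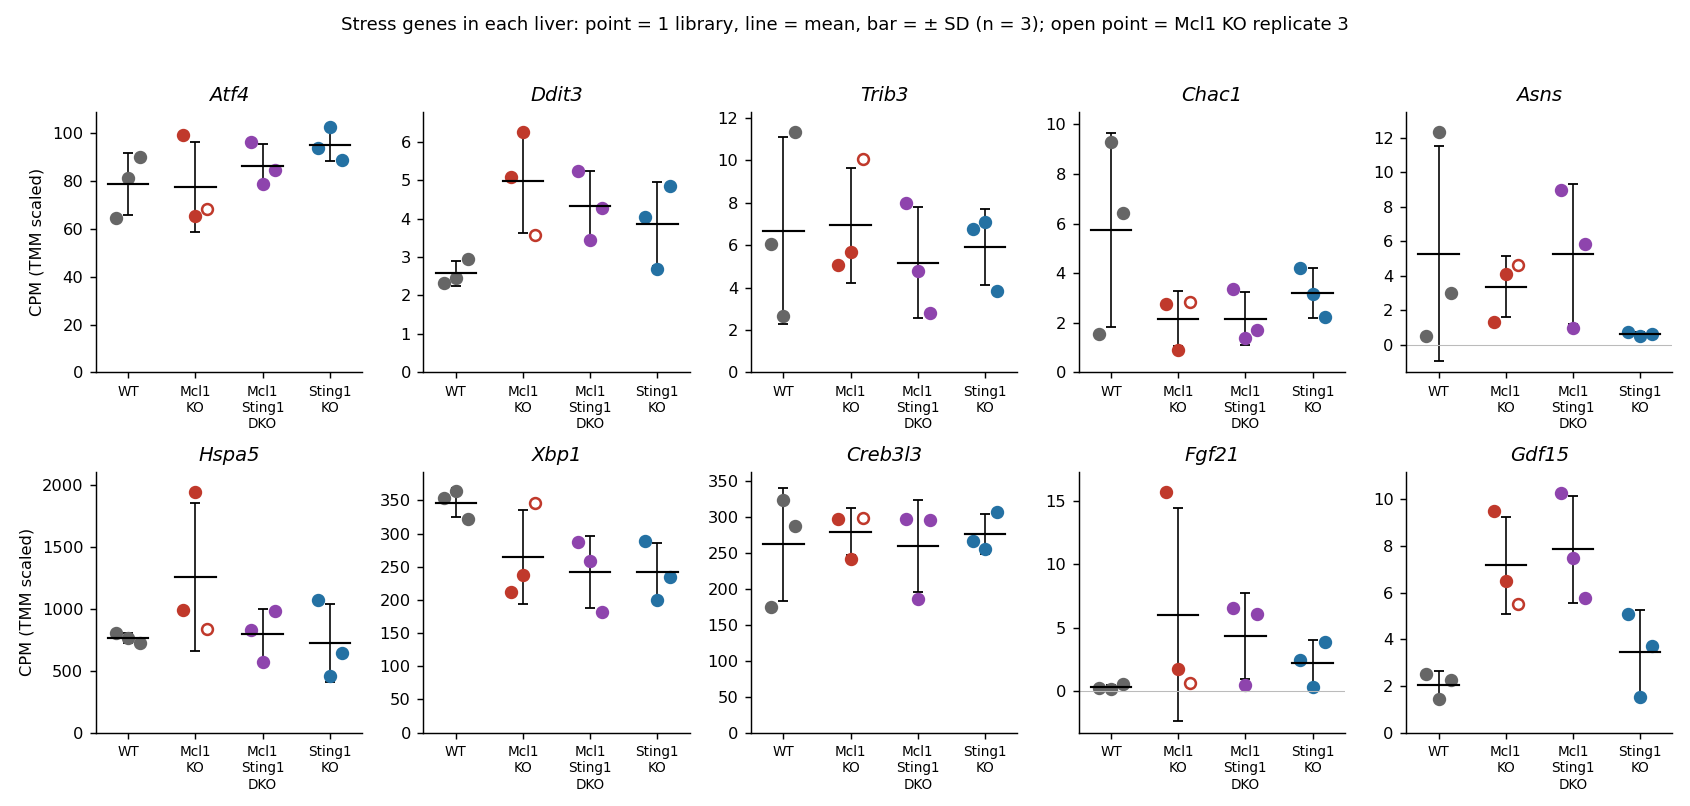
Level of each member in each liver, in CPM with TMM scaling, by genotype (n = 3 each). Points are libraries, horizontal lines are means and bars are ± SD, and the open point is Mcl1 KO replicate 3. Gdf15 is higher in every Mcl1 KO and Mcl1 Sting1 DKO liver than in any WT or Sting1 KO liver, Atf4 and Creb3l3 overlap in all genotypes, and the mean of Fgf21 in Mcl1 KO rests on 1 liver at 15.7 CPM.

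Gdf15 (ENSMUSG00000038508, chromosome 8, 71082038 to 71091537, minus strand, GRCm39) encodes a hormone of the TGF-β family that rises in many forms of cell stress and lowers food intake. In WT livers it stood at 2.51, 1.42 and 2.25 CPM, and in Mcl1 KO livers at 9.50, 6.49 and 5.53 CPM. In Mcl1 Sting1 DKO livers it stood at 10.3, 7.51 and 5.77 CPM, and in Sting1 KO livers at 5.09, 1.51 and 3.72 CPM. Every liver without Mcl1 was above every liver with it, although Mcl1 KO replicate 3 and Sting1 KO replicate 1 came close, at 5.53 and 5.09 CPM. With Sting1 intact the rise came to 1.80 on the log2 scale, or 3.48-fold (standard error of the log2 value 0.41, adjusted p = 0.0122). It was 1.96 (adjusted p = 0.0142) without Mcl1 KO replicate 3, and 1.59 (adjusted p = 0.0561) without WT replicate 2. With the share of small structured RNA as a covariate the adjusted p was 0.0657.

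Fgf21 (ENSMUSG00000030827, chromosome 7, 45263301 to 45266963, minus strand), the fasting and stress hormone that carries the ATF4 element shown above, had the largest fold change of the members and the widest spread. WT livers held 0.24, 0.18 and 0.53 CPM, which were 9, 6 and 16 reads. Mcl1 KO livers held 15.7, 1.77 and 0.60 CPM, so that replicate 1 was far above the others and replicate 3 was just above the highest WT liver. In Mcl1 Sting1 DKO livers the levels were 6.51, 0.46 and 6.05 CPM, and in Sting1 KO livers 2.47, 0.32 and 3.86 CPM. The spread inside each of these genotypes exceeded 10-fold. Against WT the log2 fold change was 4.28 (95% confidence interval 1.32 to 7.25, adjusted p = 0.0444). Without Mcl1 KO replicate 1 it was 1.93 (adjusted p = 0.232), and without replicate 3 it was 4.82 (adjusted p = 0.0265). The call was also lost in 8 other fits that left out 1 library, with the adjusted p at most 0.135: those without any 1 of the 3 WT livers, Mcl1 KO replicate 2, Mcl1 Sting1 DKO replicates 1 and 3 or Sting1 KO replicates 1 and 3. The log2 fold changes of these 8 fits ran from 4.005 to 4.84. Of the fits with all 12 libraries, the call was lost with the small structured RNA covariate (5.18, adjusted p = 0.0847) and the covariate for Y-linked expression (4.88, adjusted p = 0.0801), and it was lost with the compared groups alone (4.31, adjusted p = 0.0655).

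Ddit3 (ENSMUSG00000025408, chromosome 10, 127124268 to 127132163, plus strand) encodes CHOP, the partner of ATF4 that is linked to cell death under lasting stress. It stood at 2.32, 2.46 and 2.94 CPM in WT livers and at 5.09, 6.24 and 3.57 CPM in Mcl1 KO livers. The groups did not overlap, and the lowest Mcl1 KO value was that of replicate 3. Mcl1 Sting1 DKO livers held 5.25, 3.44 and 4.27 CPM and Sting1 KO livers 4.04, 2.68 and 4.85 CPM, 2 groups that overlapped. With Sting1 intact Ddit3 rose by 0.95 on the log2 scale (standard error 0.27, adjusted p = 0.0314), and by 1.14 (adjusted p = 0.0187) without Mcl1 KO replicate 3. It lost the call without WT replicate 1 (0.88, adjusted p = 0.0769), WT replicate 2 (0.91, 0.0984), WT replicate 3 (1.05, 0.0591) or Mcl1 KO replicate 2 (0.76, 0.128). It was also lost with the compared groups alone (0.97, adjusted p = 0.0632) and with the small structured RNA covariate (0.74, adjusted p = 0.289). The other Ddit3 identifier, ENSMUSG00000116429, lies inside this gene, held 8 to 40 reads per library and had a log2 fold change of 0.95 (adjusted p = 0.171). Ddit3 also overlaps Mars1 and Mbd6 on the opposite strand, and as the use of strand in counting is not given in the sources used here, its reads are uncertain. Mars1, a methionyl-tRNA synthetase, had a log2 fold change of -0.13 (adjusted p = 0.622).

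Atf4 (ENSMUSG00000042406, chromosome 15), the regulator at the centre of the integrated stress response, was steady as mRNA. It ranged from 64.7 to 90.3 CPM in WT, 65.5 to 99.1 CPM in Mcl1 KO, 78.7 to 96.1 CPM in Mcl1 Sting1 DKO and 88.9 to 103 CPM in Sting1 KO livers. The log2 fold change in Mcl1 KO was -0.02 with a 95% confidence interval from -0.41 to 0.37 (adjusted p = 0.947), and it was 0.065 without Mcl1 KO replicate 3. Transcripts do not report on ATF4 protein, which is set mainly by translation.

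Trib3, Chac1 and Asns carry the ATF4 element shown above and are standard readouts of ATF4. Trib3 (ENSMUSG00000032715, chromosome 2), a pseudokinase that dampens ATF4 and AKT signalling, ranged from 2.64 to 11.4 CPM in WT and 5.09 to 10.1 CPM in Mcl1 KO livers, with a log2 fold change of 0.05 (95% confidence interval -1.03 to 1.14) that was -0.31 without Mcl1 KO replicate 3, the highest of its group. Chac1 (ENSMUSG00000027313, chromosome 2), which degrades glutathione, stood at 1.56, 9.28 and 6.41 CPM in WT and at 2.75, 0.89 and 2.85 CPM in Mcl1 KO livers. WT replicate 1 lay among the Mcl1 KO livers and the other WT livers above them. Chac1 had a log2 fold change of -1.40 (adjusted p = 0.112), with -1.86 (adjusted p = 0.0270) without WT replicate 1 and -1.63 (adjusted p = 0.133) without Mcl1 KO replicate 3. DESeq2 gave it an adjusted p of 0.0479. The higher WT livers, replicates 2 and 3, are those with Y-linked expression, and with that expression as a covariate the log2 fold change was 0.04.

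Asns (ENSMUSG00000029752, chromosome 6) encodes asparagine synthetase, the classical target of the amino acid arm. It stood at 0.53, 12.3 and 3.005 CPM in WT, 1.34, 4.13 and 4.65 CPM in Mcl1 KO, 8.99, 0.97 and 5.83 CPM in Mcl1 Sting1 DKO and 0.76, 0.50 and 0.60 CPM in Sting1 KO livers. The highest liver of the WT and of the Mcl1 Sting1 DKO genotype expressed Y-linked genes, and all Sting1 KO livers were low and alike. The log2 fold change in Mcl1 KO against WT was -0.65 (95% confidence interval -2.63 to 1.32), it was -0.96 without Mcl1 KO replicate 3, and it was 1.56 with Y-linked expression as a covariate. Its adjusted p was below 0.05 in 0 of the 20 alternatives.

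The ER members Hspa5, Xbp1 and Creb3l3 did not pass the test. Hspa5 (ENSMUSG00000026864, chromosome 2), the chaperone BiP, stood at 800.2, 761 and 721 CPM in WT and at 991, 1943 and 834 CPM in Mcl1 KO livers. All 3 Mcl1 KO livers were above WT, and replicate 2 was more than the others by a wide margin. That library also had the highest share of small structured RNA, 2.37% against 0.172 to 1.36% elsewhere, and the part of this in the result was not tested beyond the covariate. For Hspa5 the log2 fold change was 0.72 (95% confidence interval -0.05 to 1.49, adjusted p = 0.159), and 0.95 (adjusted p = 0.0962) without Mcl1 KO replicate 3. Without Mcl1 KO replicate 2 it was 0.26.

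Xbp1 (ENSMUSG00000020484, chromosome 11), whose spliced mRNA encodes the active factor, stood at 353, 364 and 322 CPM in WT and at 212, 237 and 346 CPM in Mcl1 KO livers. Replicates 1 and 2 of the Mcl1 KO livers were below every WT liver, while replicate 3, the library with pancreatic transcripts, lay within the WT range. For Xbp1 the log2 fold change was -0.39 (adjusted p = 0.231), and -0.63 (adjusted p = 0.0720) without that library. The counts do not separate spliced from unspliced Xbp1. Creb3l3 (ENSMUSG00000035041, chromosome 10), which controls lipid and acute phase genes, ranged from 174 to 324 CPM in WT and 241 to 299 CPM in Mcl1 KO livers, with a log2 fold change of 0.09 (95% confidence interval -0.43 to 0.62) that was 0.04 without Mcl1 KO replicate 3.

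**Figure D2:**
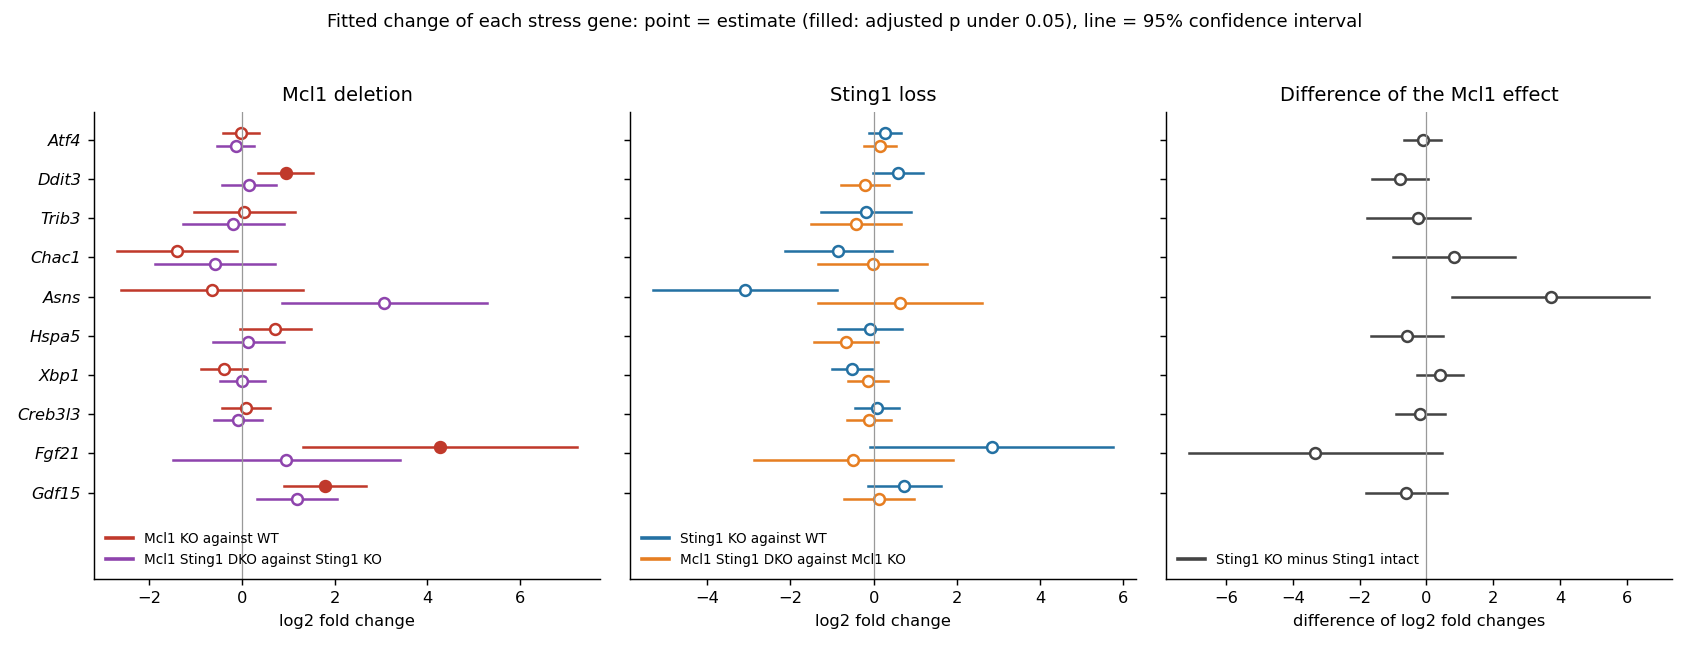
Fitted log2 fold changes of the members with 95% confidence intervals, for Mcl1 deletion on both Sting1 backgrounds (left), Sting1 loss on both Mcl1 backgrounds (middle) and the difference of the Mcl1 effect between backgrounds (right). Filled points have an adjusted p under 0.05, which holds for Ddit3 (0.95), Fgf21 (4.28) and Gdf15 (1.80) with Sting1 intact and for no member elsewhere in the plot.

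Deletion of Mcl1 without Sting1, read as Mcl1 Sting1 DKO against Sting1 KO, shares no library with the comparison above. Both still come from the fit on all 12 libraries with 1 estimate of the spread, so leaving out any library can move both sets of p-values. Of the 10 members, 0 were called by the quasi-likelihood test, as were 0.803% of all genes, while Gdf15 and Asns were the 2 members with an unadjusted p below 0.05. By DESeq2 the number of members called was 0 as well. Both Gdf15 and Asns had groups that did not overlap, as did 22.3% of all genes. Gdf15 was higher without Mcl1, by a log2 value of 1.19 (standard error 0.39) that missed the threshold (adjusted p = 0.238), and 3 of 3 livers were above the highest Sting1 KO liver. For Asns the log2 value was 3.07, with a standard error of 1.02 and the same adjusted p of 0.238. With Y-linked expression as a covariate it was 2.15, the lowest of its 20 alternatives. Mcl1 Sting1 DKO replicate 1 expressed Y-linked genes and no Sting1 KO liver did. Ddit3 had 0.16 (95% confidence interval -0.43 to 0.74), Fgf21 0.96 (-1.49 to 3.41) and Hspa5 0.14 (-0.63 to 0.90). All 3 intervals include 0.

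Averaged over both Sting1 backgrounds, Mcl1 deletion raised 1 member, Gdf15, by 1.50 on the log2 scale (standard error 0.28, adjusted p = 0.00499), where 16.7% of all genes were called. Gdf15 kept this call in all 19 alternatives, with values from 1.31 to 1.69. Fgf21 (2.62, adjusted p = 0.0614) and Ddit3 (0.55, adjusted p = 0.0676) missed the threshold. Without Mcl1 KO replicate 3, both were called, Fgf21 at 2.89 (adjusted p = 0.0316) and Ddit3 at 0.65 (adjusted p = 0.0343). Fgf21 was also called without Mcl1 Sting1 DKO replicate 2 (2.89, adjusted p = 0.0433), and Chac1 without WT replicate 1, at -1.22 (adjusted p = 0.0319) in place of -0.99 (adjusted p = 0.127). Without WT replicate 1, every WT liver left expressed Y-linked genes and no Mcl1 KO liver did. With Y-linked expression as a covariate the average for Chac1 was -0.6.

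Loss of Sting1 asks whether STING, the adaptor of cytosolic DNA sensing, bears on these genes. In livers without Mcl1, 0 of the 10 members and 0% of all genes were called, and 0 members had an unadjusted p under 0.05, which 3098 genes had. Leaving out 1 library gave 0 to 3108 genes, the most without Mcl1 KO replicate 1, and 0 members in each case. DESeq2 called 671 genes, of which 0 were members. The Mcl1 Sting1 DKO and Mcl1 KO livers overlapped for every member, where 18.2% of all genes did not overlap. Gdf15 differed by a log2 value of 0.13 (95% confidence interval -0.71 to 0.96), Ddit3 by -0.21 (-0.79 to 0.38), Atf4 by 0.16 (-0.24 to 0.55) and Fgf21 by -0.49 (-2.88 to 1.90). Hspa5 was at 991, 1943 and 834 CPM with Sting1 and at 831, 570 and 978 CPM without it, a log2 fold change of -0.66 (adjusted p = 0.301). Its log2 fold change was -0.20 without Mcl1 KO replicate 2. Without Mcl1 KO replicate 3, the value was -0.03 for Gdf15, -0.39 for Ddit3, 0.07 for Atf4, -1.02 for Fgf21 and -0.89 for Hspa5 (adjusted p = 0.260), with 6 genes and 0 members called.

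In livers with Mcl1, Sting1 KO against WT again gave 0 members and 0% of all genes, with 821 genes and 2 members, Asns and Xbp1, at an unadjusted p under 0.05. DESeq2 called 49 genes, 0 of them members, and leaving out 1 library gave 0 to 22 genes, the most without WT replicate 1. Xbp1 was at 289, 200.2 and 235 CPM in Sting1 KO livers, all below WT, as groups did not overlap for 12.5% of all genes. Its log2 fold change was -0.52 (95% confidence interval -1.01 to -0.03, adjusted p = 0.864). Asns had -3.08 (adjusted p = 0.784), where WT replicates 2 and 3 expressed Y-linked genes and no Sting1 KO liver did, and with that expression as a covariate the log2 fold change was -0.87. Gdf15 (0.74), Ddit3 (0.59) and Fgf21 (2.83) each had confidence intervals that included 0.

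The interaction, which tests whether the Mcl1 effect differed between Sting1 backgrounds, called 0 members and 0% of all genes. At an unadjusted p under 0.05 it had 2165 genes and 1 member, Asns, and DESeq2 called 172 genes, none of them a member. Leaving out 1 library gave 0 to 1574 genes, the most without Mcl1 KO replicate 1, and 0 members. The difference of the log2 fold changes was -0.61 for Gdf15 (95% confidence interval -1.82 to 0.60), -0.79 for Ddit3 (-1.62 to 0.04), -3.33 for Fgf21 (-7.11 to 0.46) and 3.73 for Asns (0.77 to 6.68, adjusted p = 0.295). Without Mcl1 KO replicate 3 these were -0.77, -0.98, -3.86 and 4.03, in the same order, and 0 genes were called. With Y-linked expression as a covariate the value for Asns was 0.59, the lowest of its 19 alternatives. The calls of Gdf15, Ddit3 and Fgf21 with Sting1 intact were thus not shown to depend on Sting1.

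**Figure D3:**
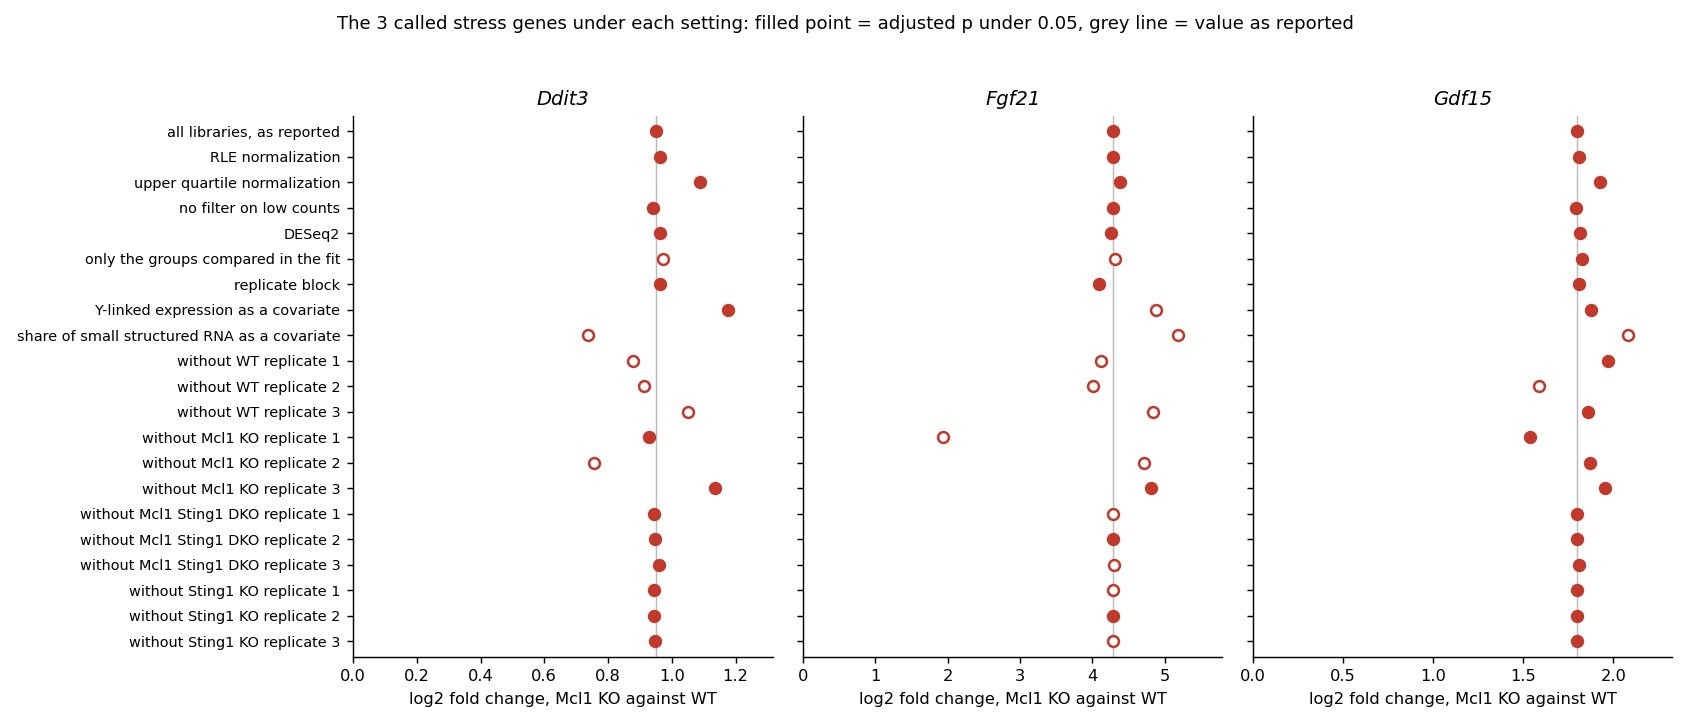
Log2 fold change in Mcl1 KO against WT of the 3 called members (x axes) under each processing setting and without each library in turn (y axis). Filled points have an adjusted p under 0.05, and the grey line is the value reported. All points lie above 0, Gdf15 is filled in 18 of 20 alternatives, Ddit3 in 14 and Fgf21 in 8, and Fgf21 falls to 1.93 without Mcl1 KO replicate 1.

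The wider pathway was described with 160 genes in 9 lists that hold none of the members, of which 156 were tested. With Sting1 intact, 18 of the 156 were higher and 16 lower in Mcl1 KO livers, shares near those of all genes, and without Mcl1 KO replicate 3 the numbers were 20 and 12. In Mcl1 Sting1 DKO against Sting1 KO, 1 was higher and 0 lower (2 and 0 without Mcl1 KO replicate 3), and neither Sting1 comparison nor the interaction called any. Values of the listed genes under the other alternatives are not given here. Among all genes, 3050 were called in Mcl1 KO against WT. The covariate for Y-linked expression left 1531 of these calls and the covariate for small structured RNA 407 in number.

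Of 32 ATF4 targets tested for amino acid synthesis, transport and tRNA charging, 7 rose and 3 fell (8 and 2 without Mcl1 KO replicate 3), where 10.8% of all genes were higher and 9.43% lower, with a median of 0.45 against -0.005 over all genes. Slc1a4, a transporter of neutral amino acids, stood at 4.75, 5.16 and 3.90 CPM in WT and 36.7, 17.7 and 13.4 CPM in Mcl1 KO livers. It stood at 26.1, 21.3 and 25.0 CPM in Mcl1 Sting1 DKO livers and 6.72, 7.51 and 4.37 CPM in Sting1 KO livers, so livers with and without Mcl1 did not overlap. With all libraries it was the only gene of the 9 lists called on both backgrounds, at a log2 fold change of 2.30 (adjusted p = 0.00197) with Sting1 and 1.96 (adjusted p = 0.0293) without it. Without Mcl1 KO replicate 3 it had 2.56 (adjusted p = 0.0014) and 1.96 (adjusted p = 0.0228), and Cdkn1a was then called on both backgrounds too. Psat1, of serine synthesis, rose by 2.48 (adjusted p = 0.0177, and 0.0143 without Mcl1 KO replicate 3), with its highest level of 9.97 CPM in Mcl1 KO replicate 2. Phgdh rose by 2.66, Mthfd1l by 2.24, Aldh18a1 by 1.66, Slc7a1 by 0.98 and Pck2 by 0.88. Slc6a9, a glycine transporter, fell by 0.93 (adjusted p = 0.0323, and 0.0518 without Mcl1 KO replicate 3), Shmt2 fell by 0.75 and Aars1 fell by 0.60.

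Of 17 tested targets of ATF4 and CHOP in signalling and death, 3 rose and 1 fell, with a median of 0.35. Of all genes, 10.8% were higher and 9.43% lower. Without Mcl1 KO replicate 3, 3 of these targets rose and 2 fell, with Ddit4 and Gadd45a among them. Cdkn1a, the cell cycle inhibitor p21 and also a p53 target, rose from 0.36 to 0.50 CPM in WT to 2.47 to 11.2 CPM in Mcl1 KO livers, by 3.90 on the log2 scale (adjusted p = 0.00313, and 0.00187 without Mcl1 KO replicate 3). Tnfrsf10b, a death receptor, rose by 3.46. In Mcl1 Sting1 DKO against Sting1 KO, Cdkn1a had 2.59 (adjusted p = 0.0795, and 0.0465 without Mcl1 KO replicate 3). Cyb5r1 rose by 0.70 (adjusted p = 0.0498, and 0.113 without Mcl1 KO replicate 3), and Vegfa, the endothelial growth factor, fell by 0.82 (adjusted p = 0.0114). Among 12 transcription factors of the stress response, Atf3, Nupr1 and Creb3l1 rose, Cebpa fell and the median was 0.32. Atf3, an early stress factor, went from 0.95 to 2.37 CPM in WT to 13.3 to 14.7 CPM in Mcl1 KO livers (2.90, adjusted p = 0.00227, and 0.00416 without Mcl1 KO replicate 3). Cebpa, a factor of hepatocyte identity, fell from 437 to 469 CPM in WT to 154 to 290 CPM (adjusted p = 0.00563, and 0.00194 without Mcl1 KO replicate 3). Nupr1 rose by 2.44, but by 1.50 (adjusted p = 0.0386) without Mcl1 KO replicate 3.

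Of 23 ER chaperones and folding enzymes, 0 rose and 3 fell, against 10.8% and 9.43% of all genes, with a median of -0.10. Ero1b, an oxidase that supports disulfide formation, fell from 51.7 to 84.3 CPM in WT to 33.8 to 35.6 CPM in Mcl1 KO livers (-1.06, adjusted p = 0.00521, and 0.0113 without Mcl1 KO replicate 3). Canx and Dnajc3 fell by 0.49 and 0.61, and both lost the call without Mcl1 KO replicate 3 (adjusted p = 0.0899 and 0.114). Of 25 sensors and components of ER-associated degradation and translocation, Ssr2 rose and Derl3 and Ern1 fell, with a median of 0.02. Ern1, which encodes the Xbp1 splicing enzyme IRE1, stood at 66.2 to 88.6 CPM in WT and 27.4 to 48.1 CPM in Mcl1 KO livers (-1.12, adjusted p = 0.0152, and 0.045 without Mcl1 KO replicate 3). Derl3 had -3.11 (adjusted p = 0.0337) and Ssr2 0.57 (adjusted p = 0.0424), and without Mcl1 KO replicate 3 both missed the threshold at an adjusted p of 0.0515 and 0.0617, while Hspa13 passed it (0.92, adjusted p = 0.03). Selenos rose on the average of both backgrounds (0.55, adjusted p = 0.0471, and 0.0509 without that library).

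Upstream, 0 of 21 genes for eIF2, its kinases and its phosphatases rose in Mcl1 KO livers and 3 fell. Of all genes, 10.8% were higher and 9.43% lower. The 3 that fell were Gcn1, the coactivator of the amino acid sensor GCN2, the haem-regulated kinase Eif2ak1 and Ppp1r15b. Gcn1 fell from 83.2 to 86.4 CPM in WT to 34.0 to 61.0 CPM (-0.87, adjusted p = 0.0162, and 0.0414 without Mcl1 KO replicate 3). Impact, an inhibitor of GCN2 activation, rose by 0.45 on the average of both backgrounds (adjusted p = 0.0355), and without Mcl1 KO replicate 3 it also passed in Mcl1 KO against WT (0.70, adjusted p = 0.0226). Of 11 mitochondrial chaperones and proteases, Afg3l2 fell by 0.41 (adjusted p = 0.0355, and 0.0818 without Mcl1 KO replicate 3), with a median of -0.28.

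Beside the log2 fold change of 0.09 of Creb3l3 itself, 4 of 10 genes listed as its hepatic targets rose and 1 fell, with a median of 0.50. Of all genes, 10.8% were higher and 9.43% lower. Apoa4, a lipid-carrying apolipoprotein, stood at 265, 109 and 227 CPM in WT and 810, 2831 and 578 CPM in Mcl1 KO livers (2.81, adjusted p = 0.00963, and 0.00534 without Mcl1 KO replicate 3). Cidec, a lipid droplet protein, rose by 2.44, Apoc2 by 1.31 and Hamp by 0.79, while Crp, an acute phase protein, fell by 0.71. These genes also have other regulators. Among the receptors of the hormones, 5 of 7 were expressed enough to test, and Klb, the coreceptor through which FGF21 acts, fell from 46.7 to 87.3 CPM in WT to 20.7 to 40.5 CPM in Mcl1 KO livers (-1.14, adjusted p = 0.0175, and 0.0473 without Mcl1 KO replicate 3). Fgfr1, Fgfr2, Fgfr3 and Fgfr4 did not pass the test, with values between -0.49 and 0.02.

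**Figure D4:**
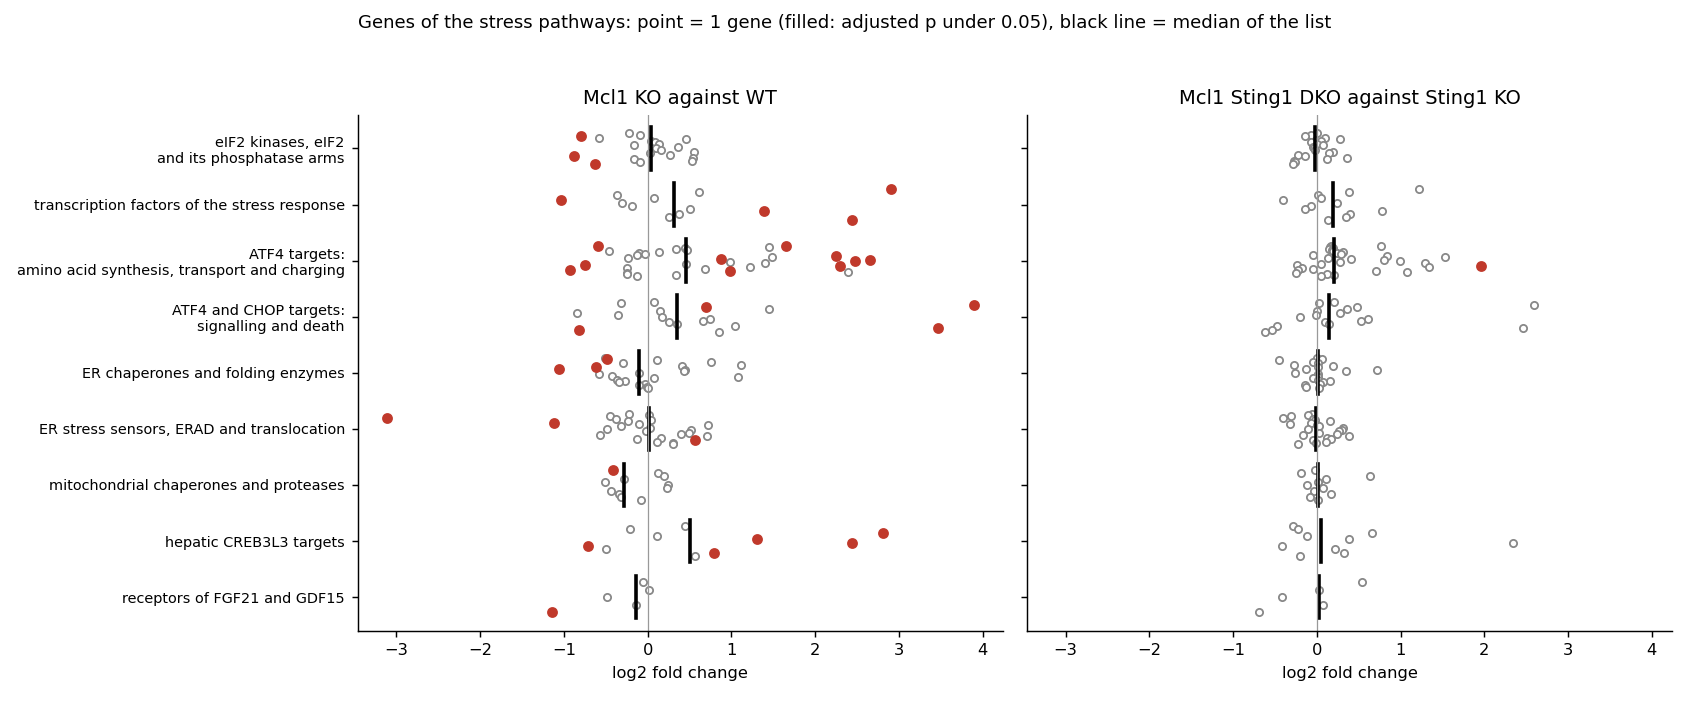
Log2 fold changes (x axis) of the tested genes of 9 stress pathway lists (y axis) in Mcl1 KO against WT (left) and Mcl1 Sting1 DKO against Sting1 KO (right). Each point is a gene, filled where the adjusted p is under 0.05, and black lines are list medians. On the left 18 genes are filled to the right of 0 and 16 to the left, and on the right 1 gene, Slc1a4, is filled.

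Markers of other cell types moved with the same comparison, in which 10.8% of all genes were higher and 9.43% lower. Summed macrophage markers (10 genes) ran from 486 to 738 CPM in WT, 901 to 1082 CPM in Mcl1 KO, 829 to 942 CPM in Mcl1 Sting1 DKO and 613 to 879 CPM in Sting1 KO livers, and 6 of 10 rose in Mcl1 KO. The plasma cell list held Jchain, Mzb1, Sdc1, Derl3, Tnfrsf17 and Igha. These 6 genes summed to 228 to 356 CPM in WT and 456 to 553 CPM in Mcl1 KO livers. Of 5 tested 2 rose and 1, Derl3, fell. Which genes carried the sum is not given, so it was not read as a number of plasma cells. Neutrophil markers ran from 1.79 to 2.81 CPM in WT and were at or above 6.68 CPM in every Mcl1 KO liver, and 3 of 3 tested rose. Stellate cell and fibroblast markers ran from 420 to 658 CPM and 784 to 918 CPM, with 3 of 6 rising, and T and B cell markers from 2.56 to 5.43 CPM and 4.94 to 7.19 CPM, with 3 of 5 rising. Of 6 endothelial and 5 cholangiocyte markers 0 passed the test, and of 10 hepatocyte markers 0 rose and 1 fell. Summed cell cycle markers (6 genes) ran from 10.6 to 11.4 CPM in WT and 46.9 to 152 CPM in Mcl1 KO livers, and all 6 rose. These cells' part in the changes of Gdf15, Ddit3 and Fgf21 was not tested, and in bulk tissue a change in the number of cells and a change in RNA per cell cannot be told apart.

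The genes most like each called member over the 12 libraries were found by Pearson's r of log2 CPM among 12558 tested genes with a mean of at least 1 CPM. For Gdf15 they were Incenp (r = 0.97), Ercc6l (0.94) and Cdca5 (0.93), whose products act in chromosome segregation and cohesion. For Ddit3 they were Unc119 (0.91), Cenpw (0.91) and Unc119b (0.90), and for Fgf21 they were Iba57 (0.95), Ptpn1 (0.95) and Ppp2r2d (0.94). The points share their genotypes and library depths, and without Mcl1 KO replicate 3 the values of r lay between 0.90 and 0.98. No gene was listed for more than 1 member. Lists of 3 from 12558 genes are too short to tell whether the members share close genes.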

How the data were processed

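Each library came as 1 table in which the authors deposited unnormalized counts: how many reads they assigned to every Ensembl gene. The submitters' notes name STAR, featureCounts and GRCm39 without versions, and the use of strand is not given in the sources used here. The study's methods name an Illumina NovaSeq sequencer, and a different RNA extraction kit stands there than in the labels. Genotypes came from the labels. Library totals on genes of 28826367 to 45266387 reads, with 3 livers per group, set the precision.

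TMM factors, CPM and fold changes were computed with edgeR 4.0.16 (filterByExpr by genotype, glmQLFit, glmQLFTest) in R 4.3.3 on the whole set of 12 libraries without covariates, and Benjamini-Hochberg adjusted p-values under 0.05 were called. The common dispersion was 0.0699, and a prior count of 2 was used for log2 CPM. DESeq2 1.42.0 served as an alternative, and both tools were tested on simulated counts. TPM used summed exon lengths of GENCODE vM39. Tables were summarised in Python 3.11.15 with pandas 2.3.3. A chi-square comparison of library pairs within a genotype gave 43.2 to 314 per degree of freedom, so none was a duplicate.

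The members and lists were chosen with earlier results of these data known. Besides the members and the deleted genes, the rule named the largest rise and fall of each list in each Mcl1 comparison, among called genes averaging 1 CPM or more, and the 3 genes most correlated with each called member. Phgdh, Mthfd1l, Aldh18a1, Slc7a1, Pck2, Aars1, Tnfrsf10b, Cyb5r1, Nupr1, Creb3l1, Canx, Dnajc3, Hspa13, Ddit4, Gadd45a, Eif2ak1, Ppp1r15b, Apoc2, Hamp, Mars1, Mbd6 and the fibroblast growth factor receptors were named after their values were seen. Alternatives were other normalizations, no filter, DESeq2, fits of the compared groups alone, covariates for Y-linked expression and for the share of small structured RNA, the replicate number as a block, and each library left out in turn.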

Additional observations from a re-analysis of the deposited data

Results flagged for a closer look

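Mcl1 KO replicate 3 held transcripts of other tissues that no comparison of the report concerns, at levels far above those of the control livers. The 6 exocrine pancreas markers summed to 8015 CPM in this library, 0.848% of its counts, against 0.897 to 1.62 CPM in the WT livers. The 8 skeletal muscle markers summed to 1423 CPM, against 0.871 to 8.48 CPM in the WT livers. All 6 and all 8 genes had reads in this library. In the same library Xbp1 stood at 346 CPM and Ddit3 at 3.57 CPM, against 212 and 237 CPM and 5.09 and 6.24 CPM in the other 2 Mcl1 KO livers, and the part of the foreign transcripts in these values was not tested.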

How the results depend on the processing

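The rises of Gdf15, Fgf21 and Ddit3 in Mcl1 KO against WT kept their direction under every alternative tried. Chac1, called lower there by DESeq2 and without WT replicate 1, was at 0.04 with Y-linked expression as a covariate. Calls changed as follows. Against 3050 genes and 3 members called in Mcl1 KO against WT, fitting the compared groups alone gave 1178 genes and 1 member, the covariate for Y-linked expression 1531 genes, and the covariate for small structured RNA 407 genes and 0 members. Leaving out 1 library gave 1233 to 5232 genes and 0 to 3 members. Against 121 genes in Mcl1 Sting1 DKO against Sting1 KO, DESeq2 gave 474, the compared groups alone 17, the Y-linked covariate 45, and leaving out 1 library 1 to 249. On the average of both backgrounds (2522 genes, 1 member), the small RNA covariate gave 1599 genes and leaving out 1 library 1711 to 4267 genes and 1 to 3 members. There, upper quartile scaling, no filter and the Y-linked covariate each gave 2 members and DESeq2 gave 3. For Sting1 loss with Mcl1 deleted (0 genes), DESeq2 gave 671, the Y-linked covariate 1 and leaving out 1 library 0 to 3108. For Sting1 loss with Mcl1 intact (0 genes), DESeq2 gave 49, the compared groups alone 2 and leaving out 1 library 0 to 22. For the interaction (0 genes), DESeq2 gave 172 and leaving out 1 library 0 to 1574. The cause of these changes was not tested.

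The replicate numbers come from the labels, which do not say whether they pair animals. Same-numbered libraries deviated from their group means with correlations of -0.541 to 0.251, over 0.1 in 3 of 18 pairs. With group means of 3 livers, these correlations cannot decide whether the numbers pair the livers. With the replicate number as a block, 2591 genes and 3 members were called in Mcl1 KO against WT, 129 genes and 0 members in Mcl1 Sting1 DKO against Sting1 KO, and 2254 genes and 2 members on average, where Fgf21 was added. Scarce members limit the precision: Fgf21 had 6 to 16 reads per WT library.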
